A study of Mus musculus with 18 samples.

Results

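Many mouse genes carry the name Gpr with a number, given to G protein-coupled receptors cloned before a ligand was known and to some related membrane proteins of organelles, and 48 genes so named were described here in RNA from spinal cord microglia. The members were the protein-coding genes of the count table whose symbol is Gpr followed by digits alone and whose counts summed to at least 180 over 18 libraries. Of 69 genes that fit the name, 48 (69.6%) met the minimum, against 13742 protein-coding genes (64.5%) of 21303 in the whole table. Close above the minimum were Gpr149 with 281 counts and Gpr12 with 292 counts, and just outside it was Gpr22 with 172 counts. Of the 21 genes below it, 14 had 20 counts or fewer.

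The libraries fell into 3 groups of 6. Metformin EAE libraries came from mice that received metformin and had experimental autoimmune encephalomyelitis (EAE), a model of multiple sclerosis driven by immune cells; metformin is an antidiabetic drug. Control EAE libraries came from EAE mice on control treatment, and healthy libraries came from disease-free mice on the same control treatment. All mice were female, were labelled WT and carried Tmem119-Cre with RiboTag, which adds an epitope tag to ribosomes (on Rpl22) where Cre is active; the Tmem119 promoter drives Cre in microglia. The molecule was labelled total RNA, no pull-down of tagged ribosomes was described, and no age, dose, day of disease or pooling was given. The title of the series concerns deletion of Kdm6a in microglia, and these 18 libraries carry no such label. Whether each replicate is its own animal is not labelled, and the p-values then measure only the spread between libraries, which may be technical.

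As background, G protein-coupled receptors span the membrane repeatedly and pass a signal to heterotrimeric G proteins, which raise or lower cyclic AMP or release calcium. Some members have since been given ligands: lysophosphatidylserine for Gpr34, medium-chain fatty acids for Gpr84, oxysterols for Gpr183, and protons for Gpr4 and Gpr65. In microglia, Gpr34 and Gpr84 are the members best known, Gpr34 as a gene of the resting state and Gpr84 as a gene of activated cells.

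Library totals ranged over 46174795 to 58253086 counts. Microglial markers were present in every library, with 9 markers summing to 8416 to 18039 CPM (counts-per-million, scaled by the TMM method) in metformin EAE, 4803 to 7876 CPM in control EAE and 18254 to 20584 CPM in healthy libraries. Metformin replicate 22 stood apart from its group: its 10 markers of monocyte-derived cells summed to 13.9 CPM, against 172 to 547 CPM in the other metformin libraries, and its neuronal markers summed to 813 CPM, against 301 to 399 CPM. Its microglial markers summed to 18039 CPM, the top of the metformin range, against 8416 to 13201 CPM in the other metformin libraries. Its mural cell and fibroblast markers summed to 39.6 CPM, against 237 to 520 CPM. Counts of members and several single changes for metformin are therefore also given without this replicate. Of the protein-coding genes, 4290 were at 0 in all libraries, among them Arrb2, which most cells use, so a 0 in this table may not be an absence. Markers of oligodendrocytes and astrocytes were also present in every library. The oligodendrocyte list had sums of 2658 to 3244 CPM with metformin and 2734 to 3461 CPM in control EAE. In healthy libraries this list came to 3432 to 3913 CPM. Astrocyte sums were 654 to 977, 691 to 765 and 886 to 956 CPM in that order of groups. Lists differ in their genes, so these sums are not shares of cells. Because these are bulk samples, fewer cells of a type and less RNA per cell cannot be told apart.

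Per kilobase of exon, the most abundant members were the lipid receptors Gpr34 and Gpr84. Gpr34 averaged 124 CPM per kilobase in metformin EAE, 60.4 in control EAE and 186 in healthy libraries. Gpr84 averaged 121 CPM per kilobase in metformin EAE, 61.5 in control EAE and 118 in healthy libraries. Gpr183 was next in healthy libraries at 49.9 CPM per kilobase, followed by Gpr179 at 28.0 CPM per kilobase. In control EAE, Gpr162 (27.0 CPM per kilobase), Gpr65 (25.7) and Gpr183 (23.3) came after the leading pair. In all, 26 members exceeded 1 CPM per kilobase in at least 1 group, and 16 of the 48 averaged at least 10 CPM over all libraries. All 48 members together summed to 1310 ± 191 CPM in metformin EAE, 972 ± 128 CPM in control EAE and 1656 ± 45.3 CPM in healthy libraries (SD, n = 6 each). Gpr34 alone made up 19.5 ± 3% of this sum in metformin EAE, 12.9 ± 2.71% in control EAE and 23.5 ± 1.79% in healthy libraries (SD, n = 6 each).

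**Figure D1:**
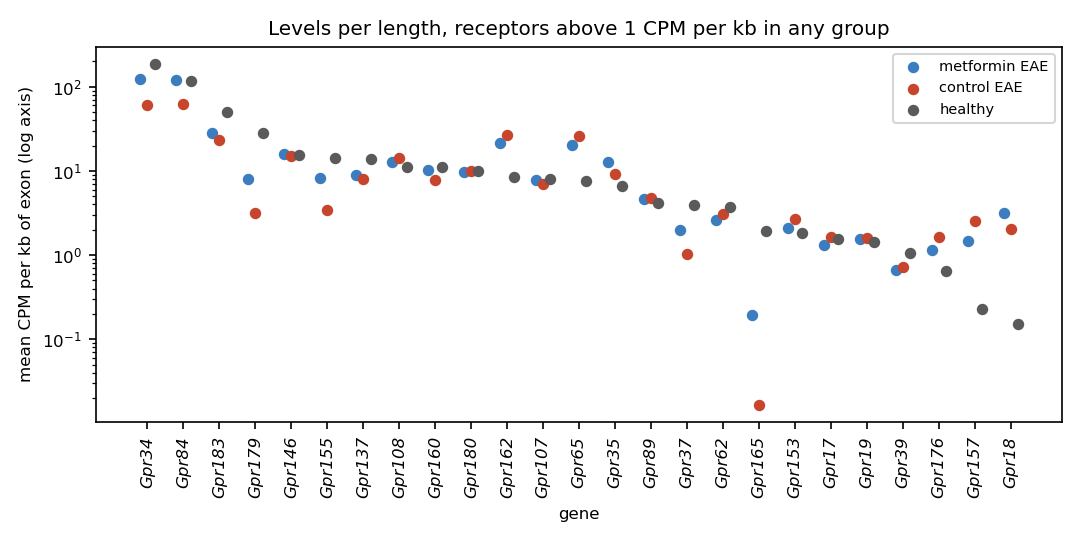
Mean level per kilobase of exon (log axis) of 25 members above 1 CPM per kilobase in at least 1 group, ordered by their level in healthy libraries, with 1 point for each group of 6 libraries. Gpr34 and Gpr84 lead in each group, and Gpr165 shows the widest spread, with 0.195 CPM per kilobase in metformin EAE, 0.0167 in control EAE and 1.93 in healthy libraries.

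More members were lower than higher in control EAE than in healthy libraries. Gpr34, Gpr84, Gpr179, Gpr155 and Gpr37 were among those that fell, and Gpr18, Gpr157, Gpr65 and Gpr162 among those that rose. All 48 members passed the filter on low counts and were tested with edgeR's quasi-likelihood F test, with p-values adjusted over 16740 genes and a threshold of 0.05. In control EAE against healthy, 25 members were lower, where 30.7% of all genes tested were lower, and 13 were higher, where 31.7% of all genes were. At least 2-fold lower were 17 members (12.6% of all genes), and at least 2-fold higher were 9 members (12.1% of all genes). The median log2 change was -0.65 over the 48 members and 0.00 over all genes tested, and the median size of the change was 1.09 for the members and 0.55 for all genes. For 27 of the 38 members past the threshold, the 6 control EAE libraries did not overlap the 6 healthy ones, as was so for 63.1% of all genes past it. With scaling by library totals alone, which moved the median of all genes to -0.42, the split was 31 lower and 9 higher. Of the 16740 genes tested, 8649 were lower and 2604 higher with that scaling. In the same comparison, 8 of 9 microglial markers, 12 of 12 neuronal markers and 7 of 9 oligodendrocyte markers were lower, while 5 of 5 T cell markers, 5 of 8 monocyte-derived markers and 3 of 4 border macrophage markers were higher. The T cell markers Cd2 and Trac, the border macrophage marker Pf4 and the neutrophil marker Ly6g were at 0 in all libraries. The part of these markers in the receptor results was not tested.

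Metformin EAE libraries differed from control EAE libraries in fewer members, and nearly all of these were higher. Gpr34, Gpr84, Gpr155, Gpr37, Gpr35 and 6 other members were higher with metformin, 11 in all, where 12.5% of all genes were higher. Gpr83 and Gpr182 were lower, 2 members where 12.1% of all genes were lower. At least 2-fold higher were 5 members (2.41% of all genes), and at least 2-fold lower were 0 members (1.05% of all genes). The median log2 change was 0.16 over the members and 0.01 over all genes, with median sizes of 0.38 and 0.28. The groups did not overlap for 6 of the 13 members past the threshold, and for 40.5% of all genes past it. Without metformin replicate 22, 12 members were higher and 1 was lower, where 1435 of 16875 genes tested were higher and 1661 lower. In that fit the log2 change against control EAE was 0.98 for Gpr34, 0.91 for Gpr84, 0.74 for Gpr37 and 0.74 for Gpr26. It was 0.50 for Gpr35, 0.36 for Gpr160 and -0.70 for Gpr83. Gpr155 kept its call (adjusted p = 0.000493, edgeR). With library totals alone, which moved the median of all genes to 0.23, the split was 17 higher and 0 lower. Of the 16740 genes tested, 4712 were higher and 616 lower with that scaling. Of the microglial markers, 7 of 9 were also higher with metformin, as were 2 of 12 neuronal, 4 of 10 astrocyte and 2 of 7 oligodendrocyte precursor markers. Also higher were 2 of 9 endothelial, 2 of 4 B and plasma cell and 2 of 6 dendritic cell markers. Of the lists for astrocytes, monocyte-derived cells, border macrophages, and mural cells and fibroblasts, 1 marker each was lower. The part of these lists in the receptor results was not tested.

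Metformin EAE libraries still differed from healthy libraries in 26 members, 18 of them lower (16.3% of all genes) and 8 higher (20.3% of all genes). At least 2-fold lower were 6 members (2.79% of all genes), and at least 2-fold higher were 6 members (7.27% of all genes). The median log2 change was -0.39 over the members and the median size was 0.67, against a median size of 0.33 over all genes. Without metformin replicate 22, 21 members were lower and 8 were higher, with Gpr165 at -4.39 and Gpr179 at -2.33 (log2). In that fit, 3790 of 16875 genes tested were lower and 4031 were higher. The log2 changes in it were -1.07 for Gpr155, -1.21 for Gpr37, -1.02 for Gpr26 and -1.21 for Gpr61. Microglial markers were lower in 8 of 9 cases here too, neuronal markers in 8 of 12 and oligodendrocyte markers in 7 of 9. Markers of T cells were higher in 5 of 5 cases, of monocyte-derived cells in 5 of 8, of mural cells and fibroblasts in 6 of 9 and of border macrophages in 3 of 4. The part of these markers in the receptor results was not tested. The mean of the metformin EAE group lay between the means of the other groups for 35 of the 48 members (72.9%) and for 67.8% of all genes tested. The 3 comparisons share libraries, so each gives its own values and none supports another.

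**Figure D2:**
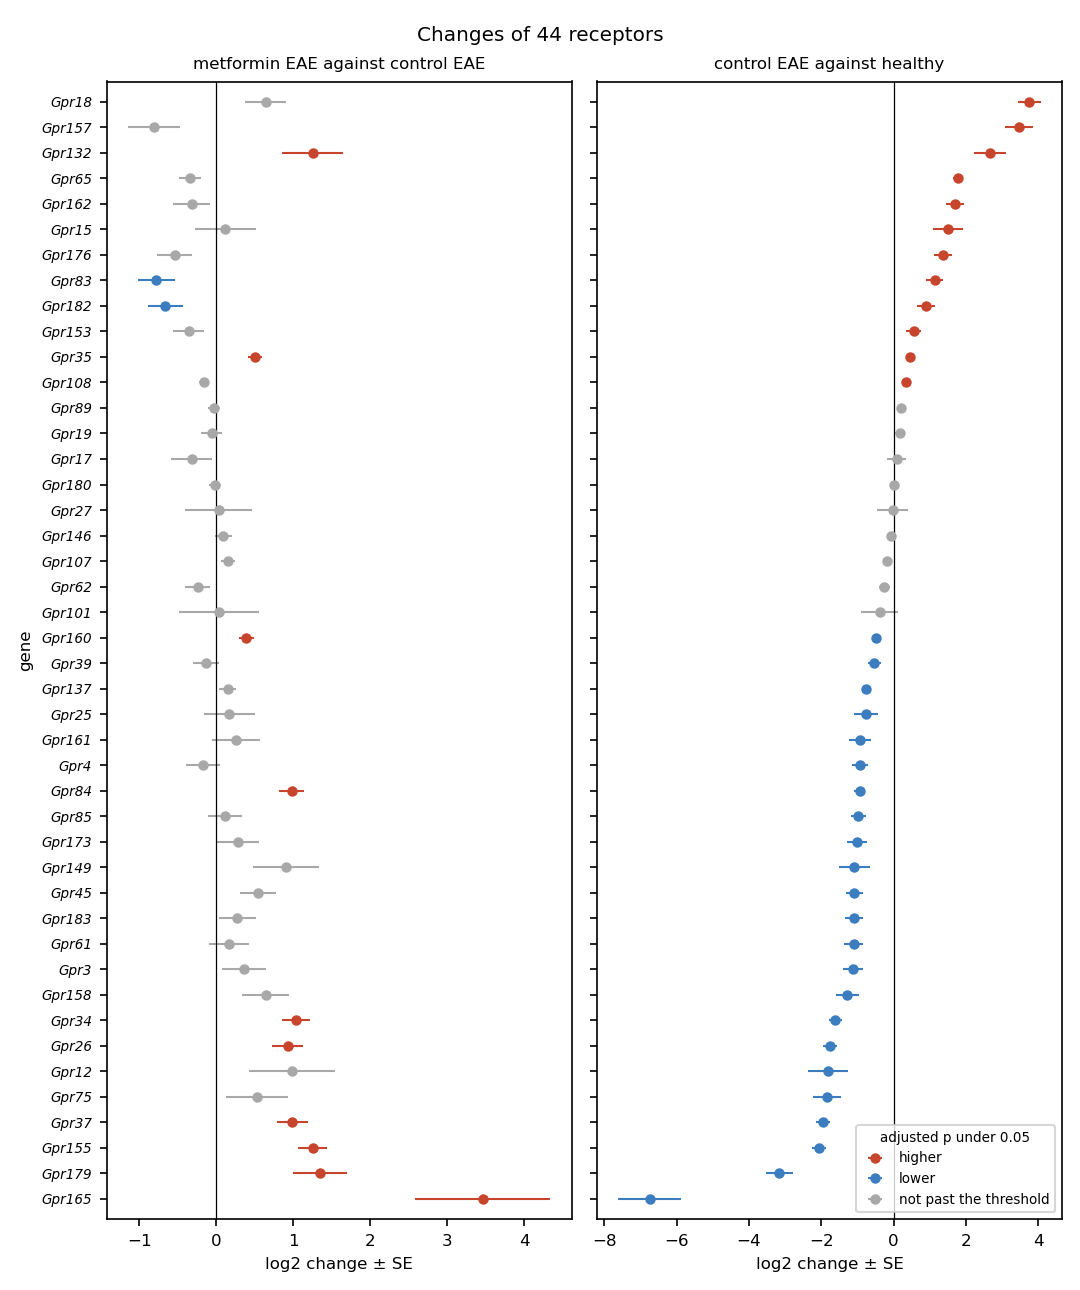
Log2 change with its SE for each of 44 members, in metformin EAE against control EAE (left) and control EAE against healthy (right), with 6 libraries in each group and separate horizontal scales. Colours mark members past adjusted p = 0.05. On the right, 23 of those drawn lie below 0 and 12 above it in colour; on the left, 2 lie below and 10 above. Gpr108, in colour on the right, turned to -0.08 with library totals alone.

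The lipid and metabolite receptors comprised 5 of the members, and each changed in control EAE against healthy: 3 fell and 2 rose. Gpr34 (ENSMUSG00000040229; chrX:13632089-13640858, plus strand) recognises lysophosphatidylserine and lies inside the gene Cask on the opposite strand. Its lowest, median and highest values were 169, 255 and 363 CPM in metformin EAE, 87.8, 125 and 186 CPM in control EAE, and 347, 394 and 406 CPM in healthy libraries. All control EAE libraries lay below all healthy ones, and metformin EAE libraries overlapped both other groups. Its log2 change was -1.62 ± 0.18 (adjusted p = 5.6e-07) in control EAE against healthy, 1.04 ± 0.18 (adjusted p = 0.00141) in metformin EAE against control EAE and -0.58 ± 0.18 (adjusted p = 0.0148) in metformin EAE against healthy.

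Gpr84 (ENSMUSG00000063234; chr15:103308235-103310612, minus strand) responds to medium-chain fatty acids. The lowest, median and highest levels of Gpr84 were 162, 201 and 261 CPM in metformin EAE, 58.2, 105 and 133 CPM in control EAE, and 169, 201 and 242 CPM in healthy libraries. Metformin EAE and healthy libraries overlapped widely, and all control EAE libraries lay below both. Gpr84 changed by -0.94 ± 0.16 (adjusted p = 5.99e-05) in control EAE against healthy and by 0.98 ± 0.16 (adjusted p = 0.00123) in metformin EAE against control EAE, while metformin EAE against healthy gave 0.04 ± 0.16 (adjusted p = 0.859), which turned to -0.13 with library totals alone. An exon of the antisense gene Gm49482 overlaps Gpr84 over 681 bases; the libraries were strand-selected, and the setting of the counting is not given in the sources used here. The promoter of Gpr84 (RefSeq, GRCm38.p6, 250 bases before to 50 after the start; chr15:103310389-103310688, minus strand) is shown for one of the leading pair; it held 3 CpG and none of the motifs searched.
Gpr84 promoter: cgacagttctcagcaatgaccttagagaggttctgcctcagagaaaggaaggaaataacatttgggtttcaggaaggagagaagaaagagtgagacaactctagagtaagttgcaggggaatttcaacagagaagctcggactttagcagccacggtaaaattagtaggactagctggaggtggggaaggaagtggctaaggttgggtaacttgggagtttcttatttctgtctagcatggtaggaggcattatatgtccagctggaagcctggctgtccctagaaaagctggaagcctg

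Gpr183 (ENSMUSG00000051212; chr14:121952551-121965195, minus strand) follows oxysterol gradients that the enzymes Ch25h and Cyp7b1 shape, and Gpr18 (ENSMUSG00000050350; chr14:121911253-121915781, minus strand), for which N-arachidonyl glycine has been proposed as a ligand, lies 36770 bases away on the same chromosome; both sit inside Ubac2, which is on the other strand. These neighbours moved in opposite directions in control EAE. Gpr183 had lowest, median and highest values of 59, 76.1 and 109 CPM in metformin EAE, 23.4, 73.4 and 101 CPM in control EAE, and 130, 143 and 161 CPM in healthy libraries. The control EAE libraries were the most scattered, and both EAE groups lay below all healthy libraries. Its change was -1.10 ± 0.24 (adjusted p = 0.000727) in control EAE against healthy and -0.83 ± 0.24 (adjusted p = 0.0121) in metformin EAE against healthy, and 0.27 ± 0.24 (adjusted p = 0.435) in metformin EAE against control EAE.

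Gpr18 was close to absent in healthy libraries, with 79 counts over the 6 of them. From the lowest to the highest library, with the median between, Gpr18 had 2.43, 4.61 and 7.64 CPM in metformin EAE, 2.12, 3.03 and 4.24 CPM in control EAE, and 0.0709, 0.226 and 0.344 CPM in healthy libraries. Every EAE library of either treatment lay above every healthy library. Gpr18 rose by 3.75 ± 0.32 (adjusted p = 7.85e-08) in control EAE and by 4.39 ± 0.32 (adjusted p = 2.98e-08) in metformin EAE, each against healthy. Metformin EAE against control EAE gave 0.64 ± 0.27 (adjusted p = 0.0861), and without metformin replicate 22, the lowest of its group, 0.77 (adjusted p = 0.0331); over 26 alternatives the adjusted p ran between 0.0216 and 0.22. The promoter of Gpr18 (RefSeq, GRCm38.p6, chr14:121915839-121916138, minus strand) is shown because Gpr18 had the widest rise of the members; it was chosen after its values were seen. Capitals mark GAAA, any 2 letters, GAAA, the core of the interferon response element.
Gpr18 promoter: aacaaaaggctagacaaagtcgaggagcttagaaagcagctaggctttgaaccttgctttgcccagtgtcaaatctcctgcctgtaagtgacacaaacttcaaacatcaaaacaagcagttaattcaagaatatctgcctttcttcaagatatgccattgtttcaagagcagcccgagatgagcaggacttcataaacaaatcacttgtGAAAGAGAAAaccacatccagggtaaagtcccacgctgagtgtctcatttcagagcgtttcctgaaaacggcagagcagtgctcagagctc

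Gpr35 (ENSMUSG00000026271; chr1:92950865-92986391, plus strand), for which the tryptophan metabolite kynurenic acid has been proposed as a ligand, was ordered by group without overlap. Its lowest, median and highest values were 50.8, 62.3 and 76.3 CPM in metformin EAE, 39.6, 43.7 and 48.7 CPM in control EAE, and 28.4, 32.8 and 34.3 CPM in healthy libraries. The metformin EAE libraries were the highest and the healthy ones the lowest. The steps were 0.45 ± 0.09 (adjusted p = 0.000279) for control EAE against healthy, 0.50 ± 0.09 (adjusted p = 0.00192) for metformin EAE against control EAE and 0.95 ± 0.09 (adjusted p = 9.97e-07) for metformin EAE against healthy. With library totals alone, the first of these was 0.03 (adjusted p = 0.795), the highest adjusted p of 26 alternatives, of which the lowest was 2.49e-05.

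**Figure D3:**
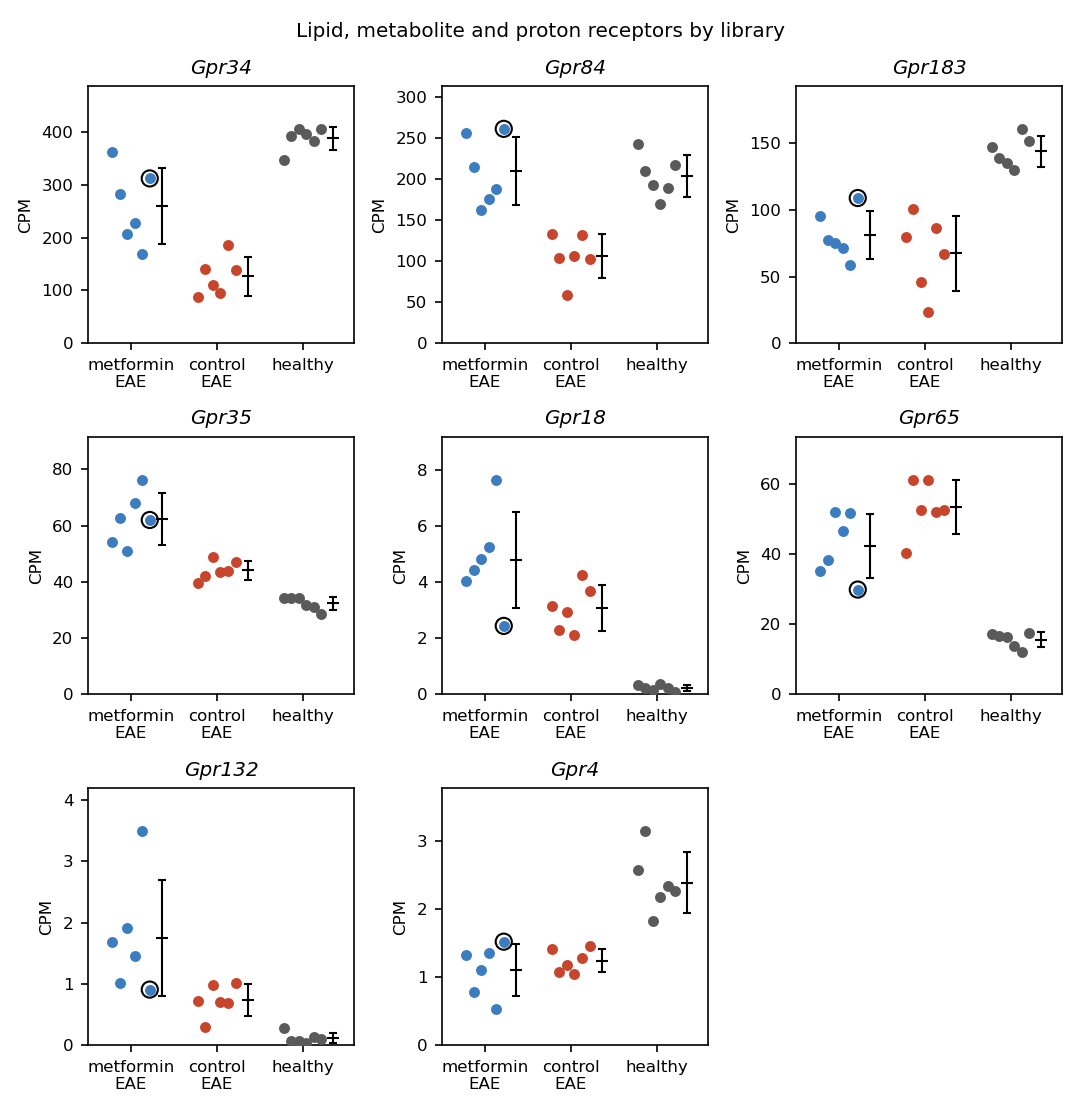
TMM-scaled CPM of 5 lipid and metabolite receptors and 3 proton receptors, with 1 point per library, 6 libraries per group, and the mean with its SD beside each group; the circled point is metformin replicate 22. Gpr34, Gpr84, Gpr183 and Gpr4 are lower in control EAE than in healthy libraries, while Gpr35, Gpr18, Gpr65 and Gpr132 are higher.

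The proton-sensing family, receptors that respond to acid outside the cell, did not share one direction in control EAE against healthy: Gpr65 and Gpr132 rose, and Gpr4 fell. Gpr65 (ENSMUSG00000021886; chr12:98268635-98276644, plus strand), which raises cyclic AMP in acid surroundings and is known from immune cells, was the most abundant of them per kilobase. The 3 groups had lowest, median and highest Gpr65 values of 29.8, 42.4 and 51.9 CPM in metformin EAE, 40.3, 52.5 and 61.1 CPM in control EAE, and 12.1, 16.4 and 17.5 CPM in healthy libraries. Every EAE library exceeded every healthy one, and metformin EAE overlapped control EAE. The rise was 1.78 ± 0.14 (adjusted p = 4.06e-08) in control EAE and 1.44 ± 0.14 (adjusted p = 9.97e-07) in metformin EAE, each against healthy, and metformin EAE against control EAE gave -0.34 ± 0.14 (adjusted p = 0.0775). The promoter of Gpr65 (RefSeq, GRCm38.p6, chr12:98268385-98268684, plus strand) is shown as that of the leading proton sensor. Capitals mark TTCCTC, the reverse complement of GAGGAA, a core recognised by the myeloid factor PU.1.
Gpr65 promoter: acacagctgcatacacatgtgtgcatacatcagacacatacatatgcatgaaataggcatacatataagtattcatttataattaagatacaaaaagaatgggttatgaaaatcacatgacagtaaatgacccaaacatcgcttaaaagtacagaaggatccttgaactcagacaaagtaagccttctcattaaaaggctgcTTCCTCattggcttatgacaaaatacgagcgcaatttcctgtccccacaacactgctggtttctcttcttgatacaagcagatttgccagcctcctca

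Gpr132 (ENSMUSG00000021298; chr12:112850873-112868228, minus strand), a weak proton sensor of leukocytes and macrophages, had 515 counts over the metformin EAE libraries, 201 over control EAE and 40 over healthy. Lowest, median and highest values of Gpr132 were 0.906, 1.57 and 3.5 CPM in metformin EAE, 0.296, 0.713 and 1.02 CPM in control EAE, and 0.0344, 0.0886 and 0.285 CPM in healthy libraries. All EAE libraries exceeded all healthy ones. Gpr132 rose by 2.66 ± 0.45 (adjusted p = 4.16e-05) in control EAE against healthy, by 1.25 ± 0.39 (adjusted p = 0.0245) in metformin EAE against control EAE and by 3.91 ± 0.45 (adjusted p = 5.81e-06) in metformin EAE against healthy. Without metformin replicate 21, its highest library at 3.50 CPM, the adjusted p for metformin EAE against control EAE was 0.0797, the highest of 25 alternatives; the lowest was 0.00841.

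Gpr4 (ENSMUSG00000044317; chr7:19212538-19224174, plus strand), best known from endothelial cells, was low. Gpr4 had lowest, median and highest values of 0.535, 1.21 and 1.52 CPM in metformin EAE, 1.04, 1.23 and 1.46 CPM in control EAE, and 1.83, 2.31 and 3.15 CPM in healthy libraries. Both EAE groups lay below healthy without overlap, and Gpr4 changed by -0.94 ± 0.22 (adjusted p = 0.00102) in control EAE and by -1.11 ± 0.22 (adjusted p = 0.000705) in metformin EAE, each against healthy. Endothelial markers did not share one direction in control EAE against healthy, with 4 of 9 higher and 3 lower, and Cldn5 was at 0 in all libraries.

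Among members of other roles, the widest rise in control EAE was that of Gpr157. Gpr157 (ENSMUSG00000047875; chr4:150087365-150105927, plus strand) is known from the primary cilium of radial glia. It had lowest, median and highest values of 2.43, 7.69 and 11.9 CPM in metformin EAE, 9.2, 12.4 and 17.5 CPM in control EAE, and 0.507, 1.01 and 2.25 CPM in healthy libraries. Every EAE library exceeded every healthy library. Gpr157 rose by 3.47 ± 0.38 (adjusted p = 5.67e-07) in control EAE and by 2.66 ± 0.37 (adjusted p = 3.31e-05) in metformin EAE, each against healthy; metformin EAE against control EAE gave -0.81 ± 0.34 (adjusted p = 0.0841). That last comparison passed the threshold with DESeq2 (adjusted p = 0.0488) and limma-voom (adjusted p = 0.0214), and its adjusted p ran between 0.0214 and 0.171 over 26 alternatives. The promoter of Gpr157 (RefSeq, GRCm38.p6, chr4:150087253-150087552, plus strand), shown for the widest rise among members of at least 5 CPM, held 18 CpG and 65.7% G and C, and none of the motifs searched.
Gpr157 promoter: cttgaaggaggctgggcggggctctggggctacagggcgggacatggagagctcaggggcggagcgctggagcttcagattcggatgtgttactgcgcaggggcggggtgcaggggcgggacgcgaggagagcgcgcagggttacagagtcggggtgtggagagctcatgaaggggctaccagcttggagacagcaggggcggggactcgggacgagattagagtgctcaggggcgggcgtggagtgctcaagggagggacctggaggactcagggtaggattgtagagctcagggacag

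Gpr162 (ENSMUSG00000038390; chr6:124858444-124863983, minus strand), an orphan receptor known from the brain, was the most abundant member that rose beyond the lipid and proton groups. Gpr162 had lowest, median and highest values of 38.5, 91.2 and 110 CPM in metformin EAE, 47.6, 105 and 143 CPM in control EAE, and 24, 30.7 and 44.9 CPM in healthy libraries. Control EAE libraries did not overlap healthy ones, whereas metformin replicate 22, the lowest metformin library at 38.5 CPM, fell within the healthy range. Gpr162 changed by 1.69 ± 0.25 (adjusted p = 1.52e-05) in control EAE and by 1.36 ± 0.25 (adjusted p = 0.000404) in metformin EAE, each against healthy.

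Gpr176 (ENSMUSG00000040133; chr2:118277110-118373419, minus strand), an orphan known from the circadian clock of the brain, had lowest, median and highest values of 2.43, 4.07 and 6.8 CPM in metformin EAE, 4.52, 6.14 and 9.66 CPM in control EAE, and 1.93, 2.4 and 3.2 CPM in healthy libraries. It rose by 1.36 ± 0.24 (adjusted p = 6.26e-05) in control EAE against healthy, without overlap, and by 0.83 ± 0.24 (adjusted p = 0.0104) in metformin EAE against healthy. An exon of Gm29232 on the same strand overlaps it over 133 bases, so its counts are uncertain to that extent. Gpr15 (ENSMUSG00000047293; chr16:58717433-58719070, minus strand), which guides lymphocytes into gut and skin, had lowest, median and highest values of 0.432, 1.36 and 2.38 CPM in metformin EAE, 0.659, 1.12 and 2.09 CPM in control EAE, and 0.143, 0.368 and 0.84 CPM in healthy libraries. The groups overlapped, and the rise was 1.51 ± 0.41 (adjusted p = 0.00322) in control EAE and 1.63 ± 0.41 (adjusted p = 0.00401) in metformin EAE, each against healthy. T cell markers were 5 of 5 higher in both of these comparisons and summed to 0.507 to 4.8 CPM in metformin EAE, 1.85 to 6.85 CPM in control EAE and 0 to 0.389 CPM in healthy libraries; their part in the rise of Gpr15 was not tested.

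Gpr83 and Gpr182 rose in control EAE and were lower with metformin. Gpr83 (ENSMUSG00000031932; chr9:14860210-14870789, plus strand), known from the brain and from regulatory T cells, had lowest, median and highest values of 0.834, 1.11 and 1.57 CPM in metformin EAE, 1.69, 1.89 and 2.37 CPM in control EAE, and 0.499, 0.825 and 1.36 CPM in healthy libraries. Control EAE libraries exceeded all libraries of both other groups. Gpr83 changed by 1.13 ± 0.24 (adjusted p = 0.000369) in control EAE against healthy and by -0.78 ± 0.24 (adjusted p = 0.0218) in metformin EAE against control EAE, the second of which was -0.56 (adjusted p = 0.0788) with library totals alone. Gpr182 (ENSMUSG00000058396; chr10:127747276-127751732, minus strand), a chemokine scavenger of lymphatic and blood endothelium, had lowest, median and highest values of 1.4, 1.81 and 2.5 CPM in metformin EAE, 2.11, 2.92 and 3.72 CPM in control EAE, and 0.814, 1.51 and 2.6 CPM in healthy libraries. The groups overlapped, and Gpr182 changed by 0.89 ± 0.24 (adjusted p = 0.00265) in control EAE against healthy and by -0.66 ± 0.23 (adjusted p = 0.0451) in metformin EAE against control EAE. The call of Gpr182 for metformin ended when any of 12 libraries was left out, with a highest adjusted p of 0.0959; it was 0.0927 without metformin replicate 22 and 0.158 with library totals alone, where its rise in control EAE against healthy was 0.48 (adjusted p = 0.0894).

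Gpr153 and Gpr108 rose in control EAE against healthy and passed no other comparison. The change was 0.55 ± 0.20 for the orphan Gpr153 and 0.34 ± 0.07 for Gpr108, a protein of the Golgi (log2, SE). Gpr153 lost its call without control EAE replicate 9 (adjusted p = 0.0821), with limma-voom (0.0564) and with library totals alone (0.603), and Gpr108 turned to -0.08 with library totals alone.

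Of the members that fell, Gpr165 (ENSMUSG00000031210; chrX:96713441-96719388, plus strand) moved farthest. It had 287 counts over the 6 metformin EAE libraries, 22 over control EAE, where 2 libraries were at 0, and 3131 over healthy. Its lowest, median and highest values were 0.0641, 0.299 and 3.28 CPM in metformin EAE, 0, 0.0813 and 0.2 CPM in control EAE, and 4.49, 8.2 and 15.2 CPM in healthy libraries. All healthy libraries lay above all EAE libraries, and 181 of the metformin counts came from replicate 22. The log2 change was -6.75 ± 0.87 (adjusted p = 4.48e-06) in control EAE against healthy, 3.46 ± 0.88 (adjusted p = 0.00962) in metformin EAE against control EAE and -3.28 ± 0.66 (adjusted p = 0.00105) in metformin EAE against healthy. Without metformin replicate 22 the metformin change was 2.36 (adjusted p = 0.0274), and with limma-voom it was 2.98 (adjusted p = 0.0999, the highest of 25 alternatives; the lowest was 0.000563).

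Gpr179 (ENSMUSG00000070337; chr11:97332109-97352077, minus strand), a scaffold of the signalling complex in ON bipolar cells of the retina, had the widest fall among members of at least 5 CPM. In lowest, median and highest libraries, Gpr179 had 32.3, 49.1 and 194 CPM in metformin EAE, 19.2, 32.7 and 33.9 CPM in control EAE, and 211, 253 and 364 CPM in healthy libraries. Both EAE groups lay below all healthy libraries, and metformin replicate 22 held the highest value of its group, 194 CPM. Gpr179 changed by -3.16 ± 0.37 (adjusted p = 2.13e-06) in control EAE against healthy, by 1.35 ± 0.35 (adjusted p = 0.0111) in metformin EAE against control EAE and by -1.80 ± 0.35 (adjusted p = 0.000869) in metformin EAE against healthy. Without metformin replicate 22 the metformin change was 0.82 (adjusted p = 0.0168, in a range of 0.00176 to 0.0327 over 26 alternatives). Its promoter (RefSeq, GRCm38.p6, chr11:97352307-97352606, minus strand), shown for this fall, held 2 CpG and none of the motifs searched.
Gpr179 promoter: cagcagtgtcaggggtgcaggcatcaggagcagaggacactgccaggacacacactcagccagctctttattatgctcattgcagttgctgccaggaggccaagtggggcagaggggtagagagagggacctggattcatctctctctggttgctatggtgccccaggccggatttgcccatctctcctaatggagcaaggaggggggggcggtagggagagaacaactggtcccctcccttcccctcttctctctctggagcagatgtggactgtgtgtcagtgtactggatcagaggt

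Gpr155 (ENSMUSG00000041762; chr2:73341506-73386572, minus strand), a lysosomal cholesterol sensor that acts on mTORC1, was tightly spread in healthy libraries. Its lowest, median and highest values were 37.6, 46.1 and 96.6 CPM in metformin EAE, 16.4, 22.5 and 28.6 CPM in control EAE, and 91.7, 95.6 and 101 CPM in healthy libraries. Control EAE libraries lay below those of both other groups without overlap. The 96.6 CPM was metformin replicate 22, and the other metformin libraries, at 58.9 CPM or less, lay below all healthy ones. Gpr155 changed by -2.07 ± 0.20 (adjusted p = 1.69e-07) in control EAE against healthy, by 1.25 ± 0.19 (adjusted p = 0.000868) in metformin EAE against control EAE and by -0.83 ± 0.19 (adjusted p = 0.00226) in metformin EAE against healthy. Gpr37 (ENSMUSG00000039904; chr6:25665878-25690729, minus strand), an oligodendrocyte receptor for which prosaposin has been proposed as a ligand, followed the same order of groups. The lowest, median and highest values of Gpr37 were 8.73, 10.7 and 22.1 CPM in metformin EAE, 4.23, 6.23 and 7.72 CPM in control EAE, and 19.1, 24 and 29.5 CPM in healthy libraries. Control EAE libraries again lay below both other groups. The 22.1 CPM was metformin replicate 22, and the other metformin libraries, at 12 CPM or less, lay below all healthy ones. Gpr37 changed by -1.95 ± 0.20 (adjusted p = 2.96e-07) in control EAE against healthy, 0.99 ± 0.20 (adjusted p = 0.00279) in metformin EAE against control EAE and -0.96 ± 0.20 (adjusted p = 0.000857) in metformin EAE against healthy. Oligodendrocyte markers were 7 of 9 lower in control EAE against healthy and 0 of 9 past the threshold in metformin EAE against control EAE; their part in the changes of Gpr37 was not tested.

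Gpr26 (ENSMUSG00000040125; chr7:131966460-131994405, plus strand), an orphan known from the brain that raises cyclic AMP without a ligand, had lowest, median and highest values of 2.47, 3.36 and 5.87 CPM in metformin EAE, 1.36, 1.92 and 2.44 CPM in control EAE, and 5.53, 6.42 and 7.55 CPM in healthy libraries. Control EAE libraries lay below those of both other groups. Outside metformin replicate 22 at 5.87 CPM, Gpr26 was at most 3.87 CPM with metformin, below all healthy libraries. It changed by -1.76 ± 0.20 (adjusted p = 7.04e-07) in control EAE against healthy, by 0.93 ± 0.20 (adjusted p = 0.00364) in metformin EAE against control EAE and by -0.83 ± 0.19 (adjusted p = 0.00262) in metformin EAE against healthy. Gpr160, proposed as a receptor of the CART peptide, was also higher with metformin: it averaged 43.7 ± 6.35 CPM in metformin EAE, 33.3 ± 3.03 CPM in control EAE and 47.1 ± 4.95 CPM in healthy libraries (SD, n = 6 each). It fell by 0.50 ± 0.10 in control EAE against healthy and rose by 0.39 ± 0.10 in metformin EAE against control EAE (log2, SE; adjusted p = 0.000244 and 0.00882, edgeR).

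The neuronal receptor Gpr158 (ENSMUSG00000045967; chr2:21367542-21830547, plus strand) had lowest, median and highest values of 1.37, 2.1 and 6.63 CPM in metformin EAE, 1.27, 1.67 and 2.67 CPM in control EAE, and 3.17, 4.27 and 5.58 CPM in healthy libraries. Control EAE libraries lay below all healthy ones, and metformin replicate 22 was the highest library of all. It fell by 1.28 ± 0.31 (adjusted p = 0.00143) in control EAE against healthy; metformin EAE against healthy gave -0.64 ± 0.30 (adjusted p = 0.104), and -1.10 (adjusted p = 0.000449) without metformin replicate 22, in a range of 0.000449 to 0.22 over 26 alternatives. Gpr61 (ENSMUSG00000046793; chr3:108148321-108154882, minus strand), an orphan of the brain linked to appetite, had lowest, median and highest values of 0.94, 1.29 and 2.79 CPM in metformin EAE, 0.797, 1.37 and 1.75 CPM in control EAE, and 2, 2.7 and 3.93 CPM in healthy libraries. It changed by -1.10 ± 0.26 (adjusted p = 0.00103) in control EAE and by -0.94 ± 0.26 (adjusted p = 0.00711) in metformin EAE, each against healthy. Metformin replicate 22 held the 2.79 CPM of Gpr61. The other metformin libraries, at 1.61 CPM or less, lay below all healthy ones. Neuronal markers were lower in 12 of 12 cases in control EAE and in 8 of 12 in metformin EAE, each against healthy, and their part in the falls of these receptors was not tested.

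Gpr85 (ENSMUSG00000048216; chr6:13834458-13839942, minus strand), the most conserved member of the brain receptor family SREB, had lowest, median and highest values of 1.07, 1.44 and 1.69 CPM in metformin EAE, 0.772, 1.25 and 1.74 CPM in control EAE, and 1.96, 2.47 and 3.37 CPM in healthy libraries. Both EAE groups lay below healthy without overlap, with changes of -0.98 ± 0.21 (adjusted p = 0.000515) in control EAE and -0.88 ± 0.21 (adjusted p = 0.00328) in metformin EAE, each against healthy. With it fell its relative Gpr173 and the receptors Gpr3 and Gpr12, which raise cyclic AMP without a ligand, so that 4 of 5 members of this group were lower in control EAE against healthy; the remaining SREB member Gpr27 gave -0.03 ± 0.44 (adjusted p = 0.96). None of the 5 passed the threshold in metformin EAE against control EAE by edgeR, at unadjusted p of 0.0958 to 0.945, nor by DESeq2 or limma-voom.

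Other members that fell in control EAE against healthy were Gpr25, Gpr39, Gpr45, Gpr75, Gpr137, Gpr149 and Gpr161, with log2 changes from -1.85 (Gpr75) to -0.53 (Gpr39, the zinc receptor). Gpr137, a lysosomal membrane protein, was the most abundant of them at 27.2 ± 3.95 CPM in control EAE and 46.5 ± 3.75 CPM in healthy libraries (SD, n = 6 each). Gpr25 lay just past the threshold (adjusted p = 0.0487, edgeR), and its call ended when any of 13 libraries was left out (highest adjusted p = 0.109). Among these were metformin EAE libraries, which are outside this comparison and share only the fit. The call of Gpr149 (adjusted p = 0.0329, edgeR) ended for any of 5 (highest 0.0712). Gpr62 passed metformin EAE against healthy and no other comparison, at -0.50 ± 0.15 (log2, SE), and lost that call without healthy replicate 19 (adjusted p = 0.0508). Gpr173 and Gpr3 lost theirs in the same comparison when any of 8 libraries was left out, with highest adjusted p of 0.0766 and 0.0831.

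**Figure D4:**
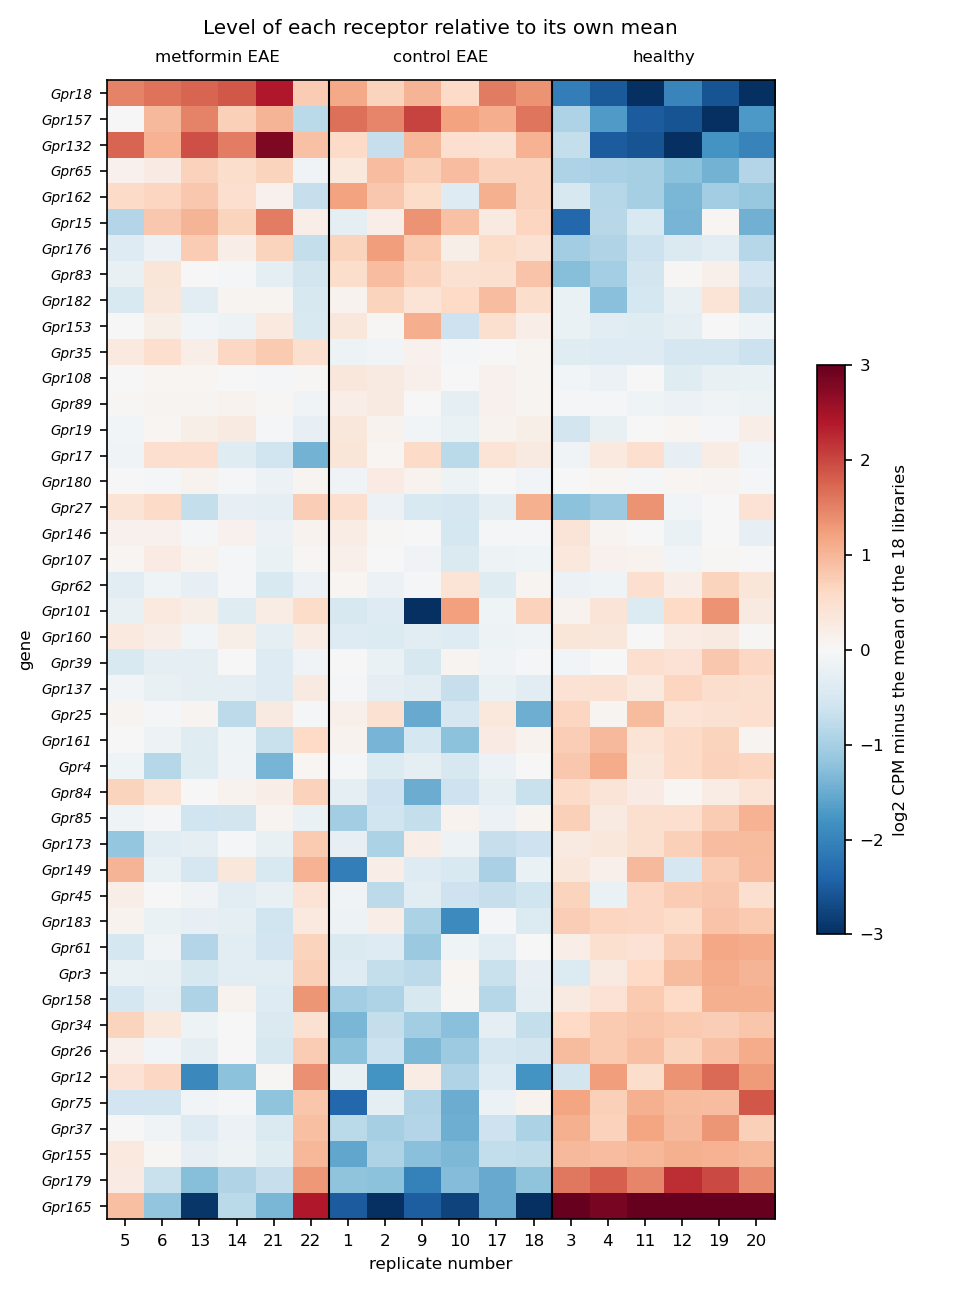
Log2 CPM of each of 44 members minus its mean over the 18 libraries, limited to 3 on either side, with libraries in columns by group and members in rows ordered by their change in control EAE against healthy. In the column of metformin replicate 22, Gpr165 (3.28 CPM, against 0.0641 to 1.16 CPM in the other metformin libraries) and Gpr162 lie nearer to the healthy columns.

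Members that passed no comparison numbered 8: Gpr17, Gpr19, Gpr27, Gpr89, Gpr101, Gpr107, Gpr146 and Gpr180. Gpr146, a receptor tied to cholesterol control in liver, was the most abundant of them, at 107 ± 9.03 CPM in metformin EAE, 101 ± 16.3 CPM in control EAE and 105 ± 16.9 CPM in healthy libraries (SD, n = 6 each). Its log2 change was -0.06 ± 0.11 in control EAE against healthy (adjusted p = 0.683). Gpr107, a Golgi protein, gave -0.19 ± 0.09 (adjusted p = 0.0863) and Gpr180 0.00 ± 0.08 (adjusted p = 0.968) in the same comparison. Gpr17, a marker of oligodendrocyte precursors on the way to myelination, gave 0.08 ± 0.27 (adjusted p = 0.803), while 5 of 7 precursor markers were lower and 2 higher. With library totals alone, Gpr146 (-0.48), Gpr107 (-0.62) and Gpr180 (-0.42) were past the threshold in control EAE against healthy. A p that misses the threshold does not show that these members were equal between groups.

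Role by role, counts in control EAE against healthy stand beside 30.7% of all genes lower and 31.7% higher. The neuronal and glial list, the longest, had 10 of 20 lower and 5 higher. Lipid and metabolite receptors gave 3 of 5 lower and 2 higher, the leukocyte list of Gpr15, Gpr25, Gpr160 and Gpr165 3 of 4 lower and 1 higher, and proteins of organelles, cilium and other sites 3 of 9 in each direction. In metformin EAE against control EAE, 3 of 5 lipid and metabolite receptors, 2 of 4 genes of the leukocyte list and 3 of 20 neuronal and glial receptors were higher, beside 12.5% of all genes.

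The signalling genes around the receptors were read from the same fit, and their counts stand beside the same shares of all genes: 30.7% lower and 31.7% higher in control EAE against healthy, 12.5% higher and 12.1% lower in metformin EAE against control EAE. In control EAE against healthy, RGS proteins, which end G protein signals, were lower in 10 of 17 cases and higher in 2. Rgs2 averaged 326 ± 53.8 CPM in metformin EAE, 287 ± 22.9 CPM in control EAE and 483 ± 38.9 CPM in healthy libraries (SD, n = 6 each), and Rgs16 averaged 12.2 ± 8.55 CPM in metformin EAE, 29.6 ± 7.85 CPM in control EAE and 1.11 ± 0.505 CPM in healthy libraries. Rgs16 rose by 4.73 ± 0.58 in control EAE against healthy (log2, SE; adjusted p = 3.12e-06, edgeR). Of the G protein alpha subunits, 5 of 13 were lower and 1 higher; Gna15, a subunit of blood cells that couples to many receptors, fell by 0.94 ± 0.12 and was 0.34 ± 0.12 higher in metformin EAE than in control EAE (log2, SE; adjusted p = 1.58e-06 and 0.0374, edgeR). Of the beta and gamma subunits, 5 of 13 were lower and 3 higher, with Gng12 at 1.32 ± 0.15 (log2, SE; adjusted p = 6.28e-07, edgeR).

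Adenylyl cyclases and cyclic AMP effectors were lower in 8 of 19 cases and higher in 4. Adcy6, a cyclase that calcium inhibits, averaged 6.43 ± 1.97 CPM in metformin EAE, 5.17 ± 0.515 CPM in control EAE and 13.3 ± 0.523 CPM in healthy libraries (SD, n = 6 each), and its change in control EAE against healthy was -1.37 ± 0.15 (log2, SE; adjusted p = 5.02e-07, edgeR). Cyclic AMP phosphodiesterases were lower in 4 of 8 cases and higher in 2, and Pde3b was 0.93 ± 0.21 higher in metformin EAE than in control EAE (log2, SE; adjusted p = 0.0043, edgeR). Receptor kinases and arrestins, which silence active receptors, were lower in 3 of 6 cases, among them Arrb1 at -1.28 ± 0.19 (log2, SE; adjusted p = 1.34e-05, edgeR). In metformin EAE against control EAE, 3 of 13 alpha subunits, 3 of 8 phosphodiesterases and 1 of 17 RGS genes were higher. So were 3 of 19 genes for cyclases and cyclic AMP effectors, and 0 were lower in these lists. Of the 13 beta and gamma subunits, 1 was higher and 1 lower, Gng11 at -0.97 ± 0.28 (log2, SE; adjusted p = 0.0186, edgeR).

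Of the genes that make, break down or encode ligands of Gpr-named receptors, members or not, 6 of 11 were higher and 2 lower in control EAE against healthy. In metformin EAE against control EAE, 2 of the 11 were higher and 1 was lower, Pla1a. Pla1a, a phospholipase that yields lysophosphatidylserine, averaged 2.14 ± 1.39 CPM in metformin EAE, 5.94 ± 1.76 CPM in control EAE and 0.17 ± 0.127 CPM in healthy libraries (SD, n = 6 each). Pla1a changed by 5.10 ± 0.59 in control EAE against healthy and by -1.48 ± 0.48 in metformin EAE against control EAE (log2, SE; adjusted p = 1.08e-06 and 0.0308, edgeR). Ddhd1, another phospholipase, rose by 2.64 ± 0.29 in control EAE against healthy (log2, SE; adjusted p = 7.04e-07, edgeR). Ch25h, which makes the precursor of the Gpr183 ligand, averaged 59.2 ± 34.1 CPM in metformin EAE, 84.6 ± 27 CPM in control EAE and 4.44 ± 1.77 CPM in healthy libraries (SD, n = 6 each). The log2 change of Ch25h in metformin EAE against healthy was 3.74 ± 0.57 (SE; adjusted p = 0.000112, edgeR).

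Receptors that once had a Gpr name, or are close relatives, were lower in 11 of 23 cases and higher in 8 in control EAE against healthy. P2ry13, a microglial receptor for ADP, averaged 666 ± 290 CPM in metformin EAE, 277 ± 80.2 CPM in control EAE and 1259 ± 54.5 CPM in healthy libraries (SD, n = 6 each). The adhesion receptor Adgrg1 changed by -2.38 ± 0.25 in control EAE against healthy (log2, SE; adjusted p = 3.9e-07, edgeR). Hcar2, the receptor for butyrate and ketone bodies, averaged 249 ± 114 CPM in metformin EAE, 157 ± 38.2 CPM in control EAE and 28.4 ± 9.45 CPM in healthy libraries (SD, n = 6 each). In metformin EAE against control EAE, 7 of the 23 were higher and 1 was lower.

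The genes whose log2 CPM was most like that of Gpr34 over the 18 libraries, among genes of at least 5 CPM, were Agmo (Pearson's r = 0.984), Epb41l2 (0.977), Zfp157 (0.977), Gclc (0.975) and Zfp111 (0.975). The libraries fall into groups, and within the 6 healthy libraries r with Agmo was 0.26 and with Epb41l2 -0.60, against 0.95 for both within metformin EAE libraries. For Gpr84, genes with a high r included Spata13 (0.899), Etv5 (0.898) and Cnnm4 (0.889). Within groups, r with Etv5 was 0.94 in metformin EAE, 0.83 in control EAE and 0.88 in healthy libraries. These values are descriptions over libraries that share their scaling. Among the members, Gpr155 (0.968), Gpr26 (0.955) and Gpr37 (0.913) were closest to Gpr34, and Gpr157 was the most opposed (-0.851). Within the 6 healthy libraries, r with Gpr34 was 0.20 for Gpr155, -0.05 for Gpr26, -0.27 for Gpr37 and -0.57 for Gpr157.

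Promoters of 300 bases were in the RefSeq table for 36 of the 48 members, 48 promoters in all since some genes have several starts. The PU.1 core GAGGAA, on either strand, was in 10 of these 48 promoters (20.8%), against 28.3% of all 32851 promoters in the table; the members were Gpr19, Gpr35, Gpr45, Gpr65, Gpr107, Gpr108, Gpr137, Gpr146 and Gpr161. The interferon response core (GAAA, any 2 letters, GAAA) on either strand was in 3 of 48 (6.25%), those of Gpr15, Gpr18 and Gpr19, against 3.44% of all promoters. TGACGTCA, the cyclic AMP response element, which reads the same on both strands, was in 0 of 48 and in 1.79% of all promoters. The motifs were counted separately and may overlap. Member promoters held a median of 12.5 CpG, with a range of 0 to 42, against a median of 7 over all promoters. A match describes letters in this window and is no evidence of binding.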

How the data were processed

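RNA-seq counts per gene were analysed for 18 spinal cord microglia libraries, 6 in each of 3 groups. Per the labels' protocols, RNA was isolated with a Direct-zol kit and libraries were made with a stranded KAPA kit after mRNA enrichment; per the submitters' processing notes, bcl2fastq 2.17, FastQC, Trimmomatic and the build mm10 were used. No aligner, counting tool, strand setting or annotation is given in the sources used here. The deposited values are raw whole-number counts for 39017 genes, with library totals of 46174795 to 58253086. Even numbers made up 72.8% of the counts from 1 to 10. Replicates differed by more than counting noise (lowest chi-square per degree of freedom 15.5), so none was merged.

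Some members are counted in the totals and not reported singly here. Members and gene lists were chosen with earlier results of these data known. The named members were, by rule, lipid and proton receptors and the members with the widest changes past the threshold. The counts were fitted with edgeR 4.0.16 in R 4.3.3 over all 18 libraries and 3 groups, with TMM scaling, filterByExpr (minimum count 10, total 15) and the robust quasi-likelihood F test; p-values were Benjamini-Hochberg adjusted over 16740 genes and called at 0.05. Log2 changes are printed with their SE, the size of the change divided by the square root of F. CPM are TMM-scaled, with a prior of 1 on the log2 scale. Positions and overlaps came from GENCODE M21 (GRCm38), and promoters from RefSeq GRCm38.p6. Alternatives were other scalings, filters, DESeq2 1.42.0, limma 3.58.1, 2-group fits, a term for title number sets and leaving out each library.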

Additional observations from a re-analysis of the deposited data

Results flagged for a closer look

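Over 44 members and 3 groups, 11 of 132 groups of 6 libraries held a library with a wide gap to its nearest neighbour. The gap was judged on the log2 CPM scale against the range of the group. Independent, normally distributed values give such gaps in about 1 in 20 groups. The members share their libraries, so the count of 11 cannot be read against that rate. Among metformin EAE libraries, replicate 22 held 3 of them: Gpr37 at 22.1 CPM with the nearest library at 12 CPM, Gpr3 at 1.49 CPM with the nearest at 0.789 CPM, and Gpr89 at 22.3 CPM with the nearest at 24.6 CPM. Metformin replicate 14 had 0.322 CPM of Gpr25, with the nearest library at 0.544 CPM.

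Among control EAE libraries, replicate 9 held 2: Gpr84 at 58.2 CPM with the nearest library at 102 CPM, and Gpr101 at 0 CPM with the nearest at 0.182 CPM. Replicate 10 held Gpr146 at 71.7 CPM, with the nearest at 102 CPM, and Gpr17 at 4.23 CPM, with the nearest at 7.79 CPM. Replicate 2 held Gpr132 at 0.296 CPM, with the nearest at 0.68 CPM.

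Among healthy libraries, replicate 3 had 347 CPM of Gpr34, with the nearest library at 383 CPM, and replicate 4 had 0.672 CPM of Gpr45, with the nearest at 1.1 CPM.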

How the results depend on the processing

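No paired analysis was possible because the groups share no replicate numbers; the titles number the libraries in consecutive sets, each with libraries of every group, whose meaning the labels do not give, and a term for these sets gave 13 higher and 26 lower, 11 and 2, and 9 and 19 in the 3 comparisons. The main counts were 13 higher and 25 lower for control EAE against healthy, 11 and 2 for metformin EAE against control EAE, and 8 and 18 for metformin EAE against healthy. With a minimum of 1800 counts in place of 180, which leaves 29 members, 9 were higher and 13 lower, 9 and 1, and 6 and 11 in these comparisons. Scaling by library totals alone gave 17 higher and 0 lower members for metformin EAE against control EAE. Of 16740 genes tested, 4712 were higher and 616 lower with that scaling. No filter on low counts gave 1 lower member in this comparison, and DESeq2 and limma-voom 3 lower each. Leaving out 1 library at a time gave 12 to 14 higher and 23 to 25 lower for control EAE against healthy, 11 to 12 higher and 1 to 4 lower for metformin EAE against control EAE, and 8 to 9 higher and 15 to 21 lower for metformin EAE against healthy.

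With library totals alone, changes turned sign for Gpr108 (-0.08), Gpr89 (-0.24), Gpr17 (-0.36) and Gpr19 (-0.26) in control EAE against healthy; for Gpr108 (0.07), Gpr89 (0.19), Gpr180 (0.21), Gpr19 (0.16), Gpr39 (0.09) and Gpr4 (0.08) in metformin EAE against control EAE; and for Gpr84 (-0.13), Gpr146 (-0.16), Gpr108 (-0.01), Gpr89 (-0.05), Gpr153 (-0.02) and Gpr19 (-0.11) in metformin EAE against healthy. Of these, Gpr108 in control EAE against healthy was past the threshold. Limma-voom turned Gpr27 to 0.11 in control EAE against healthy. Leaving out 1 library turned the sign of changes that had not passed the threshold: Gpr146 (-0.11 to 0.03) and Gpr27 (-0.31 to 0.41) in control EAE against healthy; Gpr89 (-0.09 to 0.01), Gpr180 (-0.05 to 0.03), Gpr61 (-0.11 to 0.26), Gpr15 (-0.11 to 0.33), Gpr27 (-0.12 to 0.32) and Gpr101 (-0.22 to 0.48) in metformin EAE against control EAE; Gpr84 (-0.03 to 0.11), Gpr146 (-0.02 to 0.11), Gpr107 (-0.08 to 0.01) and Gpr180 (-0.04 to 0.01) in metformin EAE against healthy. The causes were not tested. Depth limited Gpr165 (22 counts), Gpr12 (37) and Gpr149 (47) over control EAE, and Gpr132 (40) and Gpr18 (79) over healthy, most among the members named here. Floors and intervals would cover counting error only.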

Other observations

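Markers of further cell types were read from the same fit in control EAE against healthy. Of the astrocyte markers 6 of 10 were lower and 2 higher, and of the mural cell and fibroblast markers 6 of 9 were higher and 1 lower, with sums of 39.6 to 520 CPM in metformin EAE, 371 to 830 CPM in control EAE and 16.8 to 93.1 CPM in healthy libraries. Of the tested B and plasma cell markers 2 of 4 were higher and 2 lower, of the neutrophil markers 2 of 3 were higher and 1 lower, and of the dendritic cell markers 1 of 6 was higher and 2 lower. Ly6c2 and Chil3, markers of monocyte-derived cells, were at 0 in healthy libraries.

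In all, exons of 17 of the 48 members overlap a gene on the opposite strand. Besides Gpr84, they include Gpr89 (Pdzk1 and Gja5, up to 1333 bases), Gpr39 (Lypd1, 1202 bases), Gpr158 (Gm13327, 601 bases) and Gpr137 (Bad, 524 bases). Others are Gpr65 (Gm47566, 511 bases), Gpr25 (Gm26781, 448 bases), Gpr15 (Cpox, 204 bases), Gpr155 (Gm13703 and Gm13709, up to 166 bases) and Gpr182 (Zbtb39, 74 bases). Because the strand setting of the counting is not given in the sources used here, reads of these pairs may not be told apart. On the same strand, an exon of Asb3 overlaps Gpr75 over 127 bases, so the counts of Gpr75 are uncertain to that extent.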
